A study of Mus musculus with 12 samples.

Results

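The Hedgehog ligand genes Shh (Sonic hedgehog) and Ihh (Indian hedgehog) are described here by their H3K4me3, a histone mark of active and poised promoters, in epithelium of the mouse small intestine. Members are the peaks that overlap a window around each gene in build mm9, chr5:28778000-28802000 for Shh and chr1:74985000-75005000 for Ihh. The windows hold 19 of the 116174 peaks in the 8 deposited lists, 11 at Shh and 8 at Ihh. Merged across libraries, they form 2 of 24352 regions, chr5:28784448-28795085 at Shh and chr1:74994234-74999093 at Ihh, and every library had a peak at both.

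Hedgehog ligands are secreted proteins that cut themselves and carry a cholesterol group. They bind Patched on receiving cells, which releases Smoothened and in turn activates the Gli transcription factors. In the gut the epithelium makes the ligands and the mesenchyme beneath receives them, where they help to pattern smooth muscle and villi. In the adult small intestine Ihh is the ligand chiefly reported in epithelium. Broad H3K4me3 domains, which spread from a promoter into the gene, are known from genes that define cell identity.

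Chromatin immunoprecipitation and sequencing was done on 2 libraries from each of 4 groups, all of mixed C57BL/6 CD1 strain. Embryonic epithelium of the embryonic stages E12.5 and E14.5 was sorted for EpCAM without CD31 or CD45. Adult cells at postnatal day 60 came from male Lgr5EGFP-Cre-ERT mice: ISC are stem cells sorted for high Lgr5-EGFP, and enterocytes were sorted with the same EpCAM gate as the embryonic cells, with no enterocyte marker named. How many animals went into a library is not given in the sources used here. Whether each sort holds its named cell type was not checked at marker genes, because no gene annotation of build mm9 was used here.

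Depth ranged from 12821255 to 43259380 tags per library, and the lists held 11111 to 17658 peaks. A peak list gives no read counts between peaks, so a stretch outside a peak was not called in that library, which does not show that it lacked the mark. Covered length, the bp under a library's peaks in a region, is given as deposited. It is also given scaled, divided by a factor per library that equalizes the median over the 8903 regions called in all 8 libraries. In bulk chromatin, a mark in fewer cells and less mark per cell cannot be told apart. Each group also had an input library of its own as control, so group and input cannot be told apart. The genes were chosen by their covered length in these same libraries, so all values at Shh and Ihh are descriptions, with no test.

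The RefSeq table of promoter sequences matched 1 of the 2 genes. The 250 bases before the start of Ihh (GRCm38.p6, chr1:74951673-74951922, minus strand, a build other than that of the peaks) are shown because the Ihh region carried the mark in every library. Capitals mark CG dinucleotides.
Ihh: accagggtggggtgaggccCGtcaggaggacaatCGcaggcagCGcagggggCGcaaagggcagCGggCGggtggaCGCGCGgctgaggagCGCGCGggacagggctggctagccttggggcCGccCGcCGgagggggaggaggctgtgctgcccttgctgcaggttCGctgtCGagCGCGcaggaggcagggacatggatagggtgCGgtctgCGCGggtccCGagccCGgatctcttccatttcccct
The stretch held 24 CG dinucleotides and was 72% G or C. At least as many CG dinucleotides were present in 12.0% of the 32851 upstream stretches of this length in the RefSeq table, whose median was 6. The GC box GGGCGG, searched on both strands, matched 2 times, and 32.7% of all stretches held at least 1 match. TATAAA, also searched on both strands, had no match, and 12.4% of all stretches held it. By name in the same table, Rbm33 and the long noncoding RNA gene 9530036O11Rik flank Shh, and Cfap65 and Nhej1 flank Ihh. The noncoding gene overlaps Shh, and since H3K4me3 has no strand, the mark of these 2 genes cannot be told apart.

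At Shh, a domain that was among the longest in the genome in both embryonic stages was a short peak in both adult cell types. At E12.5, replicate 1 had a peak of 6254 bp (chr5:28787523-28793776) and a separate one of 786 bp (chr5:28785922-28786707). Replicate 2 had 1 peak of 8783 bp (chr5:28784895-28793677). At E14.5 the domain was unbroken in both libraries, 10204 bp in replicate 1 (chr5:28784882-28795085) and 10078 bp in replicate 2 (chr5:28784448-28794525). The embryonic libraries thus had most of the same stretch under peaks, with both E14.5 libraries extending past both E12.5 libraries on the side of higher coordinates.

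In ISC, replicate 1 had a single peak of 1160 bp at Shh (chr5:28790746-28791905). Replicate 2 had 3 peaks, of 1506 bp (chr5:28790532-28792037), 317 bp (chr5:28785461-28785777) and 196 bp (chr5:28793254-28793449). Enterocytes had 1 peak per library, of 934 bp in replicate 1 (chr5:28790483-28791416) and 1404 bp in replicate 2 (chr5:28790256-28791659). No base of these adult peaks lay outside the embryonic domain. The small outer peaks of ISC replicate 2 had a −log10 q of 1.67 and 2.34, where the lowest value in that list was 1.01.

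The stretch covered in all 8 libraries at Shh was 671 bp long (chr5:28790746-28791416), or 6.31% of the merged region. All 4 embryonic libraries shared 6941 bp, and all 4 adult libraries shared only those 671 bp. Of the 6941 bp, 4963 bp (71.5%) were under no adult peak. On the side of lower coordinates, the outermost embryonic peak reached 5864 and 6298 bp beyond the shared stretch at E14.5, and 4824 and 5851 bp at E12.5. On the other side it reached 3669 and 3109 bp at E14.5, and 2360 and 2261 bp at E12.5. The embryonic domain was therefore longer towards lower coordinates in all 4 libraries.

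**Figure D1:**
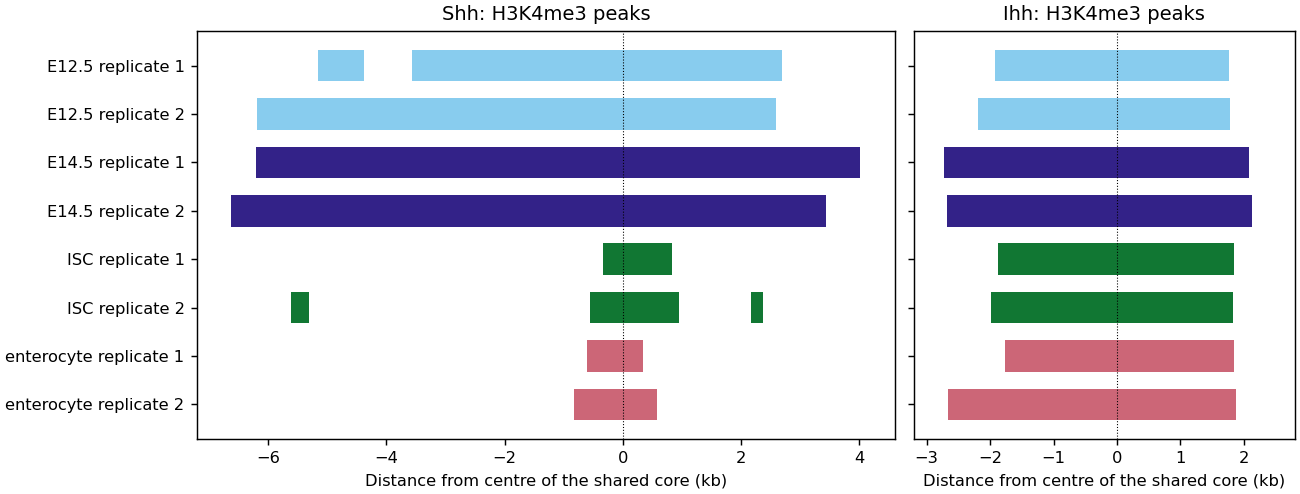
Peaks called in each library at Shh (left) and Ihh (right), plotted as bars by distance in kb from the centre of the stretch covered in all 8 libraries; each row is a library. At Shh the embryonic bars reach far beyond the adult ones, while at Ihh the bars of all 8 libraries are of similar length.

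At Ihh the mark covered much the same stretch in every group. At E12.5 the peak was 3686 bp long in replicate 1 (chr1:74995041-74998726) and 3962 bp in replicate 2 (chr1:74994780-74998741). At E14.5 it was 4813 bp (chr1:74994234-74999046) and 4807 bp (chr1:74994287-74999093). In ISC it was 3726 bp (chr1:74995084-74998809) and 3817 bp (chr1:74994980-74998796). Enterocytes had 3598 bp (chr1:74995207-74998804) and 4541 bp (chr1:74994300-74998840). Each library had a single, unbroken peak, and enterocyte replicate 2 differed more from its own replicate than the ISC libraries did from each other.

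The stretch shared by all 8 libraries at Ihh was 3520 bp (chr1:74995207-74998726), or 72.4% of the merged region, against 6.31% at Shh. Of the 3686 bp shared by the 4 embryonic libraries, 0 bp lay outside every adult peak. The Ihh libraries differed mainly at the end of lower coordinates, where the peak passed the shared stretch by 973 and 920 bp at E14.5 and by 907 bp in enterocyte replicate 2. The other 5 libraries passed it by 0 to 427 bp. At the end of higher coordinates the excess was 320 and 367 bp at E14.5 and at most 114 bp elsewhere.

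Between ISC and E14.5, covered length at Shh differed far beyond the spread between replicates. ISC averaged 1589.5 bp ± 607, and E14.5 averaged 10141 bp ± 89.1 (SD, n = 2 each). The highest ISC library, at 2019 bp, lay well below the lowest E14.5 library, at 10078 bp. Scaled, the mean was 1524 bp ± 413 in ISC, against 8019 bp ± 185 for E14.5. The difference on the log2(scaled bp + 200) scale was -2.27 ± 0.35 (SD of the difference, from both groups' SDs), against a median of -0.067 over 17679 regions. A difference of at least 1 on this log2 scale with libraries of the 2 groups not overlapping was found for 1 of the 2 genes in the shorter direction. Among all regions tested, 17.4% were shorter and 3.5% longer in ISC by this rule.

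Ihh averaged 3771.5 bp ± 64.3 in ISC, against 4810 bp ± 4.24 for E14.5. This gap closed with scaling, where ISC averaged 3695 bp ± 369 and E14.5 averaged 3803 bp ± 57.8, and the scaled libraries overlapped. Its log2 difference was -0.043 ± 0.14. Of the 8903 regions called in all 8 libraries, none had a more negative difference than Shh in ISC against E14.5. That place was the same in the 7 alternatives in which it was ranked, with other scalings, pseudocounts, lists of equal number and rules of overlap. The rules of overlap could not move it, since the Shh region lies wholly inside its window. Leaving out the scaling shifts most regions by a similar amount, so it could hardly move it either. With only peaks of −log10 q of 10 or more, Shh had no peak in ISC replicate 1 and was not ranked. Since the genes were chosen by these same lengths, the place is a description and the alternatives are no separate support. Over all 17679 regions, which include those absent from a group, 466 had a more negative value.

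**Figure D2:**
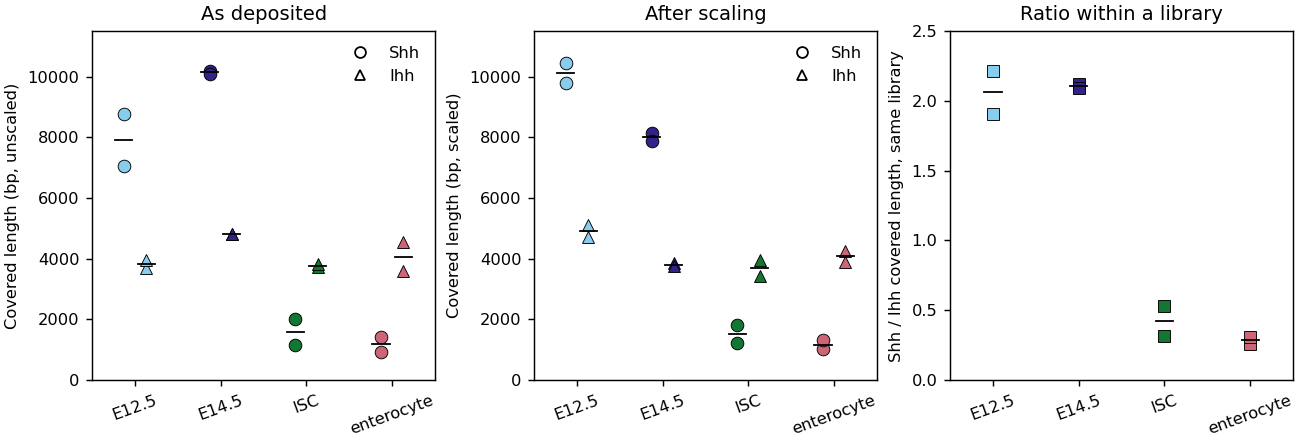
Covered length in bp at Shh (circles) and Ihh (triangles) per library, as deposited and scaled, and the ratio of Shh to Ihh within each library (squares); horizontal bars are means of 2 libraries. The adult Shh values, at 934 to 2019 bp, lie below all Ihh values, and the embryonic Shh values lie above them.

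Between enterocytes and E14.5, Shh was likewise shorter. Covered length averaged 1169 bp ± 332 in enterocytes and 10141 bp ± 89.1 at E14.5 (SD, n = 2 each), or 1162 bp ± 218 and 8019 bp ± 185 scaled. Its log2 difference was -2.60 ± 0.23, against a median of -0.15 over all regions, and again no region called in all 8 libraries had a more negative one. Over all 17679 regions, 423 did. This comparison has its E14.5 libraries in common with that of ISC against E14.5. By the same rule of size and overlap, 1 of the 2 genes was shorter. Among all regions, 25.9% were shorter and 7.19% longer in enterocytes. Ihh averaged 4069.5 bp ± 667 in enterocytes and 4810 bp ± 4.24 at E14.5. Scaled, it was 4071 bp ± 266 in enterocytes and 3803 bp ± 57.8 at E14.5, a log2 difference of 0.092 ± 0.092, while the unscaled difference was -0.24. Its scaled libraries did not overlap, but the share of all regions without overlap at any size of difference was not counted.

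Between enterocytes and ISC, the scaled difference at each gene was smaller than the spread of its libraries. Shh covered 1169 bp ± 332 in enterocytes and 1589.5 bp ± 607 in ISC, with a log2 difference of -0.33 ± 0.42. Ihh covered 4069.5 bp ± 667 in enterocytes and 3771.5 bp ± 64.3 in ISC, with a log2 difference of 0.13 ± 0.16. The Ihh value turned to -0.082 with quantile normalization. It was 2.31 when only peaks with a −log10 q of 10 or more were kept, which left ISC replicate 1 without a peak at Ihh. The scaled libraries of the 2 groups overlapped at both genes, and 0 of the 2 genes met the rule of size and overlap. Among all regions, 5.34% were longer and 8.05% shorter in enterocytes.

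Between E14.5 and E12.5 the direction at both genes depended on the scaling. As deposited, Shh covered 10141 bp ± 89.1 at E14.5 and 7911.5 bp ± 1232 at E12.5. Ihh covered 4810 bp ± 4.24 at E14.5 and 3824 bp ± 195 at E12.5. Scaled, Shh covered 8019 bp ± 185 at E14.5 and 10122 bp ± 480 at E12.5, and Ihh 3803 bp ± 57.8 at E14.5 and 4920.5 bp ± 285 at E12.5. The log2 differences were -0.33 ± 0.075 at Shh and -0.35 ± 0.083 at Ihh with scaling, and 0.36 and 0.32 without it. The libraries of the 2 stages did not overlap at either gene on either scale. How many of all regions lacked overlap at any size of difference was not counted, so this sets neither gene apart. The median over all regions was 0.19 with scaling. By the rule of size and overlap 0 of the 2 genes differed, against 24.8% of regions longer and 0.356% shorter at E14.5.

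**Figure D3:**
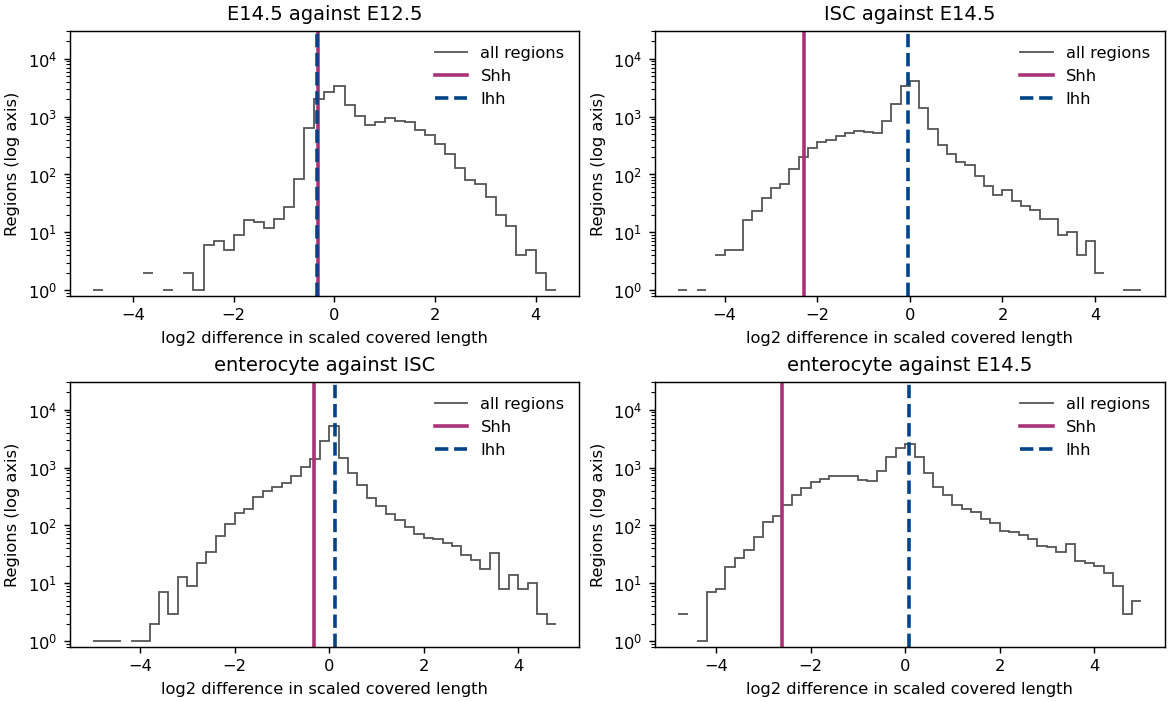
Distribution of log2 differences in scaled covered length over 17679 regions in 4 comparisons (first-named group minus second; log count axis), with the values of Shh (solid line) and Ihh (dashed line). Shh lies far to the left at -2.27 for ISC against E14.5 and -2.60 for enterocyte against E14.5, while Ihh lies between -0.35 and 0.13 in all 4.

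The ratio of Shh to Ihh covered length within a library needs no scaling between libraries. The E12.5 libraries had ratios of 1.91 and 2.22, and the E14.5 libraries 2.12 and 2.10. The ISC libraries had 0.311 and 0.529, and the enterocyte libraries 0.260 and 0.309. Shh thus had the longer coverage in all 4 embryonic libraries and Ihh in all 4 adult ones. The ratios of E12.5 and E14.5 overlapped, and those of ISC and enterocytes did not overlap with either embryonic stage. Enterocyte replicate 2, at 0.309, and ISC replicate 1, at 0.311, had nearly the same ratio. In each of the 4 groups the library with more tags covered more bp at Shh. Across groups, ISC replicate 2, with 25547814 tags, covered 2019 bp, while E12.5 replicate 1, with 15053166 tags, covered 7040 bp. The part of depth in these values was not tested.

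Each peak's place in its own list also needs no scaling. A place by length restates the peak lengths above and is no separate support. By length, the widest Shh peak was number 4 of 11111 and 2 of 13693 at E12.5, and number 6 of 16225 and 5 of 17658 at E14.5. In ISC it was number 5766 of 13213 and 5121 of 15617, and in enterocytes number 7315 of 11650 and 5645 of 17007. The embryonic Shh domain thus stood among the 6 longest peaks of each list, while the adult peak lay in the bulk of the list.

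Shh was also ranked by strength of call. The −log10 q of the widest Shh peak, the caller's strength of evidence against input, was 9.65 and 16.7 for E12.5, and 46.0 and 43.4 for E14.5. These values placed it within the top 15.0% and 19.5% of the list at E12.5, and the top 33.1% and 29.5% at E14.5. In ISC the values were 7.13 and 10.7, at 63.0% and 64.3% of the list, and in enterocytes 5.06 and 27.9, at 77.0% and 43.1%. By place in the list, Shh was therefore higher in every embryonic library than in any adult one here too, by less than by length. The −log10 q itself did not keep this order, since enterocyte replicate 2, at 27.9, lay above both E12.5 libraries. The order of places held by pileup, the coverage by fragments within the peak, with a narrow gap. E14.5 replicate 1 stood at 33.4% of its list, and enterocyte replicate 2 at 36.6%. The remaining adult libraries stood at 60.8% to 66.9%. Fold enrichment over input broke the order. It was 7.00 for enterocyte replicate 2, above E12.5 (5.85 and 6.84) and below E14.5 (9.04 and 12.8). The remaining adult libraries had 3.70 to 4.89.

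At Ihh the 2 adult groups stood apart in strength of call, while their lengths overlapped both as deposited and scaled. By length the peak was within the top 0.445% to 0.576% of the E12.5 lists, 0.770% to 0.789% of the E14.5 lists, 1.17% to 1.70% of the ISC lists and 1.23% to 2.71% of the enterocyte lists. Its −log10 q was 9.46 and 20.1 in the E12.5 libraries and 67.8 and 64.6 in those of E14.5. It was 5.60 and 13.5 in the ISC libraries, and 15.4 and 56.1 in those of enterocytes. As a share of the list, that was the top 16.3% and 9.57% for E12.5, 9.41% and 6.96% for E14.5, 70.6% and 60.3% for ISC, and 15.5% and 7.71% for enterocytes. The ISC libraries thus stood apart from the other 6, all of which had the peak within the top 16.3%.

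The mean pileup, the coverage by fragments within the peak, does not use the input. By pileup, Ihh was within the top 8.41% and 6.16% of the E12.5 lists, and the top 6.87% and 4.76% of the E14.5 lists. It was within the top 68.0% and 58.4% of the ISC lists, and the top 11.1% and 7.18% of the enterocyte lists. Fold enrichment over input, as the authors' caller gave it for this peak, was 6.12 and 10.8 in enterocytes, against 4.41 and 5.19 in ISC. It was 5.22 and 6.76 at E12.5 and 11.7 and 17.1 at E14.5. By this measure ISC replicate 2 and E12.5 replicate 1 were nearly equal. In each of the 4 groups the library with more tags had the higher −log10 q at Ihh. Across groups, enterocyte replicate 1 had a −log10 q of 15.4 with 12821255 tags, against 13.5 with 25547814 tags in ISC replicate 2. The part of depth in these values was not tested either.

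The low strength in ISC also held among peaks of like length. Of the peaks within 10% of the Ihh length, 27.6% and 10.5% had a higher −log10 q at E12.5, and 16.7% and 13.3% at E14.5. In ISC, 143 of 152 such peaks in replicate 1 and 204 of 215 in replicate 2 did, that is 94.1% and 94.9%. In enterocytes, 53 of 249 (21.3%) and 7 of 168 (4.17%) did. At Shh, 81.1% and 69.2% of peaks of like length had a higher value in enterocytes, against 79.9% and 90.1% in ISC. The embryonic Shh peaks had only 2 to 7 peaks of like length, themselves included. The comparison by like length was chosen after the values were seen.

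**Figure D4:**
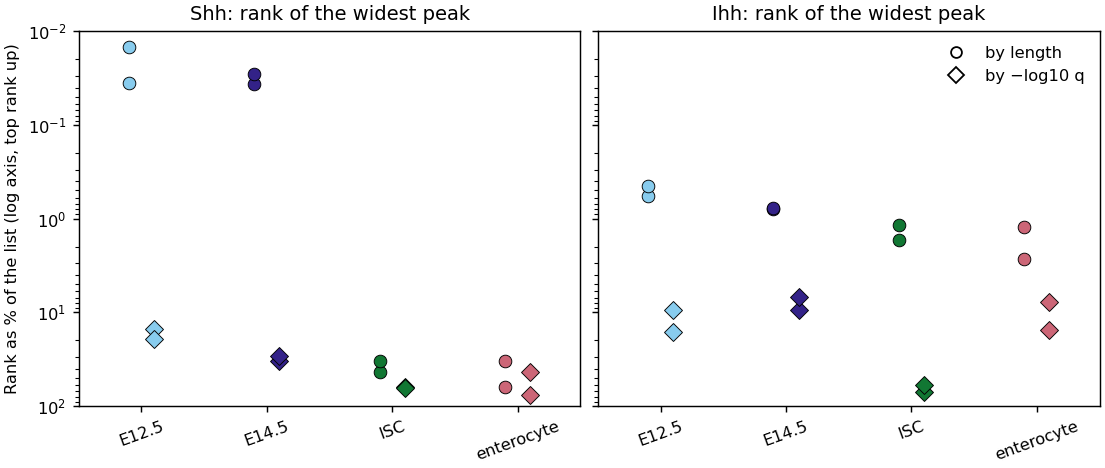
Rank of the widest peak at Shh (left) and Ihh (right) within its own list, as a percentage of the list on a log axis with the top rank upward, by length (circles) and by −log10 q (diamonds), per library. Shh is far down the list by length in ISC and enterocytes, while Ihh is within the top 2.71% by length in all 8 libraries and far down by −log10 q in ISC, at 70.6% and 60.3%.

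The windows had different numbers of regions nearby. Within 250 kb of Shh there were 3 other regions, of which 1 was called in all 8 libraries. That region, chr5:28642834-28644920, covered 1586 and 1718 bp at E12.5 and 1862 and 1926 bp at E14.5. It covered 1701 and 1855 bp in ISC and 1426 and 1405 bp in enterocytes, all as deposited. With scaling, its log2 difference in ISC against E14.5 was 0.19. The nearest such region on the other side, chr5:29521622-29523606, lay 726537 bp away, beyond the 250 kb. As deposited, it averaged 1399 bp ± 87.7 in ISC, against 1932 bp ± 75.0 for E14.5. With scaling, its log2 difference was -0.14. Neither of these neighbours was shortened as much as Shh in ISC. That was fixed in advance, since none of the regions called in all 8 libraries had a more negative difference than Shh. Whether the change was confined to Shh was not tested. Outside the Shh window, the nearest peak lay 33005 bp from the Shh region. It was 133 bp long and called in E14.5 replicate 2 alone (chr5:28828090-28828222).

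Within 250 kb of Ihh there were 24 other regions, 9 of them called in all 8 libraries. The closest of those on each side were chr1:74863175-74864218, with a log2 difference of 0.089 in ISC against E14.5, and chr1:75120867-75122325, with -0.080. Just outside the Ihh window, short peaks lay on both sides at E14.5 and in no other group. They measured 366 and 234 bp at chr1:74981901-74982295, and 667 and 777 bp at chr1:75009328-75010104. Further regions within 250 kb were also called at E14.5 alone, such as chr1:74830706-74831138 and chr1:74838267-74838863. The E14.5 lists covered the most bp of all lists, 23132815 and 24275691. The short peaks beside the window therefore do not set Ihh apart.

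The 5 regions with the pattern most like Shh, by Pearson correlation of log2(scaled bp + 200) over the 8 libraries, were sought among 4648 regions of at least 2000 scaled bp in some library. These points share library, depth and scale factor. They were chr2:63935007-63937191 (r = 0.996), chr8:30329031-30330696 (0.995), chr17:51951301-51953335 (0.994), chrX:110410918-110414230 (0.993) and a region of chromosome 18 (0.993). All were shorter than Shh. The chromosome 2 region averaged 1594 bp ± 141 for E12.5, 2146 bp ± 39.6 for E14.5 and 89 bp ± 126 for ISC, with 0 bp in both enterocyte libraries. The chromosome X region was called in adult cells too, with 1125.5 bp ± 158 for ISC and 969 bp ± 304 for enterocytes, against 3214.5 bp ± 3.54 at E14.5.

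The regions most like Ihh were chr2:26757221-26759309 (r = 0.972), chr12:21117005-21119215 (0.966), chr9:109777757-109780524 (0.966), chr2:29642354-29644488 (0.959) and chr3:61166793-61170285 (0.955). The last of these was nearest to Ihh in length, with 2881 bp ± 80.6 in ISC, against 3439.5 bp ± 57.3 for E14.5. By root mean square difference, which also weighs the level, 0 of the 5 regions were the same for either gene.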

How the data were processed

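H3K4me3 was measured in 8 libraries, 2 for each of 4 groups taken from the sample titles; 4 input samples enter only as controls of the peak calls. Per the file headers, the authors called peaks per library with MACS 2.0.10.20130712 in broad mode at a q-value cutoff of 0.01. The lowest −log10 q of a list was 1.01 to 1.09, so the lists also hold peaks weaker than this stated cutoff. The deposited values per peak are position and length in bp, pileup signal, −log10 p-value and −log10 q-value, and fold enrichment, a ratio over input; per the submitters' processing notes, the build was mm9 and the tools included bcl2fastq 1.8.4, Bowtie 1.1.2 and SAMtools 1.2. They were used to describe and rank peaks within their list. Whole peaks overlapping a window by at least 1 bp were counted with Python 3.11.15 and pandas 2.3.3. Lists were merged where peaks overlapped or touched, and regions called in at least 2 libraries were compared. Covered bp was divided by factors from 0.720 to 1.28 and compared as log2 with a pseudocount of 200 bp, which understates changes of short regions. The interval counts were tested on simulated data. Depth, as tags per library, limits which stretches are called; no counting interval can be given for peak lists. Regions were named by the highest correlation with each gene, and neighbours by distance. The genes, lists and alternatives were chosen with earlier results of these data known. Other genes of the Hedgehog pathway and cell type markers were planned and are not analysed here, since positions in mm9 were not given for them.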

Additional observations from a re-analysis of the deposited data

How the results depend on the processing

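No paired analysis was possible because the results come from no test. Shh kept its direction in all 13 alternatives for ISC against E14.5, enterocyte against E14.5 and enterocyte against ISC. The alternatives that clipped peaks to the window, or asked for 50% of a peak inside it, could not differ, since both regions lie wholly inside their windows. In enterocyte against ISC the main difference, -0.33 ± 0.42, was within the spread, and it was -0.026 with peaks of −log10 q of 10 or more. With libraries left out in turn, the log2 difference at Shh ranged from -2.52 to -2.03 in ISC against E14.5, -2.76 to -2.40 in enterocyte against E14.5, -0.58 to -0.081 in enterocyte against ISC and -0.40 to -0.29 in E14.5 against E12.5. At Ihh the ranges were -0.14 to 0.055, 0.028 to 0.20, 0.037 to 0.23 and -0.42 to -0.32, in the same order. Without scaling, Shh was 0.36 in E14.5 against E12.5 and -2.94 in enterocyte against E14.5; Ihh was 0.32 in E14.5 against E12.5, -0.34 in ISC against E14.5 and -0.24 in enterocyte against E14.5. Quantile normalization gave -0.20 for both genes in E14.5 against E12.5, and for Ihh -0.082 in enterocyte against ISC and -0.23 in enterocyte against E14.5. A pseudocount of 1000 bp gave Shh -1.85 in ISC against E14.5 and -2.06 in enterocyte against E14.5. Relative to Ihh in the same library, an alternative chosen after seeing the data, Shh had 0.035 in E14.5 against E12.5 and -2.90 in enterocyte against E14.5.

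Keeping peaks from a −log10 q of 10 upward left Shh at 0 bp in replicate 1 of E12.5, ISC and enterocytes, and Ihh in replicate 1 of E12.5 and ISC. Shh then had 2.51 in E14.5 against E12.5, -3.85 in ISC against E14.5 and -3.87 in enterocyte against E14.5; Ihh had 2.03 in E14.5 against E12.5, -2.20 in ISC against E14.5 and 2.31 in enterocyte against ISC.

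The share of regions past the rule of size and overlap, which was 24.8% longer and 0.356% shorter in E14.5 against E12.5, 3.5% and 17.4% in ISC against E14.5, 5.34% and 8.05% in enterocyte against ISC, and 7.19% and 25.9% in enterocyte against E14.5, changed by over 1.5 times as follows. With a pseudocount of 1000 bp it was 1.82% longer and 0.0848% shorter, 0.707% and 1.63%, 1.86% and 0.786%, and 2.79% and 3.31%, in the same order. In lists of equal number, the 11111 peaks of highest −log10 q, it was 7.13% and 1.97% in E14.5 against E12.5, 5.48% and 7.63% in ISC against E14.5, and 10.9% and 13.7% in enterocyte against E14.5. Without scaling, 0.221% were shorter in E14.5 against E12.5. The cause was not tested.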
